A study of Mus musculus with 6 samples.

Results

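The proton pump and intercalated cell genes are 31 gene symbols chosen by name, of the 24434 in the count table: 21 subunits of the vacuolar proton pump (V-ATPase) and 10 transporters, enzymes and regulators of kidney intercalated cells. Of the 21 subunits, 16 are shared by most cell types and 5 are isoforms found in fewer cell types, intercalated cells among them. These 5 are called restricted here. All 31 passed the filter on low counts, which kept 16373 genes. The series compared whole kidneys of db/db mice, the diabetic model, with kidneys of db/m controls, 3 libraries of each, all from animals on normal chow. The db allele disrupts the leptin receptor gene Lepr. The db/db animals carry it on both chromosomes and become obese and diabetic, and the db/m animals carry it on 1 chromosome and stay lean. Polyadenylated RNA was sequenced, and levels are given as CPM, counts scaled to a common library size and corrected for library composition (TMM). Age, sex and strain are not given in the labels, nor is it stated that the libraries are from separate animals. The p-values therefore rest on library-to-library spread, which may be technical.

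The V-ATPase is a rotary pump that spends ATP in its cytoplasmic V1 part to drive protons through its membrane part, V0. In every cell it acidifies lysosomes and endosomes. In the kidney collecting duct, intercalated cells also place it in the plasma membrane. Type A cells secrete acid with it into the urine, and type B cells secrete bicarbonate through pendrin. The isoforms B1, C2, G3, a4 and d2 are known for this cell type, which also holds abundant carbonic anhydrase to make the protons.

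Total counts were 27023129 to 29868789 in db/db and 25937756 to 35931140 in db/m libraries. Lepr itself was at 5.66, 2.54 and 5.15 CPM in db/db and 2.94, 2.48 and 3.61 CPM in db/m libraries, and a gene-level count does not show the splicing defect of the db allele. Among db/m libraries, replicates 2 and 3 stood apart for the restricted subunits and other intercalated members. Among the 15 restricted subunits and other intercalated members, db/m replicate 2 was the highest db/m library for 12, and db/m replicate 3 was the lowest for 13. The same db/m replicate 2 was the highest db/m library for 9 of 12 principal cell markers, but there db/m replicate 1 was the lowest for 8. Whole kidney RNA cannot tell fewer cells of a type from less RNA per cell.

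In db/db kidneys some shared pump subunits rose, while 1 restricted subunit fell. Of the 16 shared subunits 8 rose and 0 fell, while of the 5 restricted subunits 0 rose and 1 fell (edgeR quasi-likelihood test, Benjamini-Hochberg adjusted p below 0.05). DESeq2 and limma-voom gave the same counts, and at an unadjusted p below 0.05 edgeR again counted 0 shared subunits lower and 0 restricted subunits higher. Whether the shared and restricted subunits differ from each other as groups was not tested. The median log2 fold change was 0.23 for the shared and -0.12 for the restricted subunits, against -0.057 over all genes tested. Of the 10 other intercalated members, 1 rose and 3 fell. Over all genes tested, 13.1% were called higher and 10.8% lower, 24.0% in all, against 9 and 4 of the 31 members. All db/db libraries lay above all db/m libraries for 12 shared subunits and below them for none, and below them for 1 restricted subunit. Such separation was found for 22.4% of all genes upward and 22.2% downward.

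Most of these calls were near the threshold. When 1 library was left out at a time, the number of shared subunits called higher was 4 after removal of db/m replicate 1 or 3. It was 3 after removal of db/m replicate 2 or of db/db replicate 1 or 2, and 2 after removal of db/db replicate 3. The choice of scaling also matters, because total counts alone shifted the median over all genes to -0.318. With total counts 1 shared subunit, Atp6v0c, was called higher and 1 was called lower, 8 of 16 had a positive fold change instead of 15, and the medians were -0.03 for shared and -0.38 for restricted subunits. A change of scaling shifts all genes nearly alike, so it leaves their place relative to the median of all genes as it was, with 15 of 16 shared and 1 of 5 restricted subunits above it. Once db/m replicate 2 was left out, 3 of the 5 restricted subunits lay above that median.

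**Figure D1:**
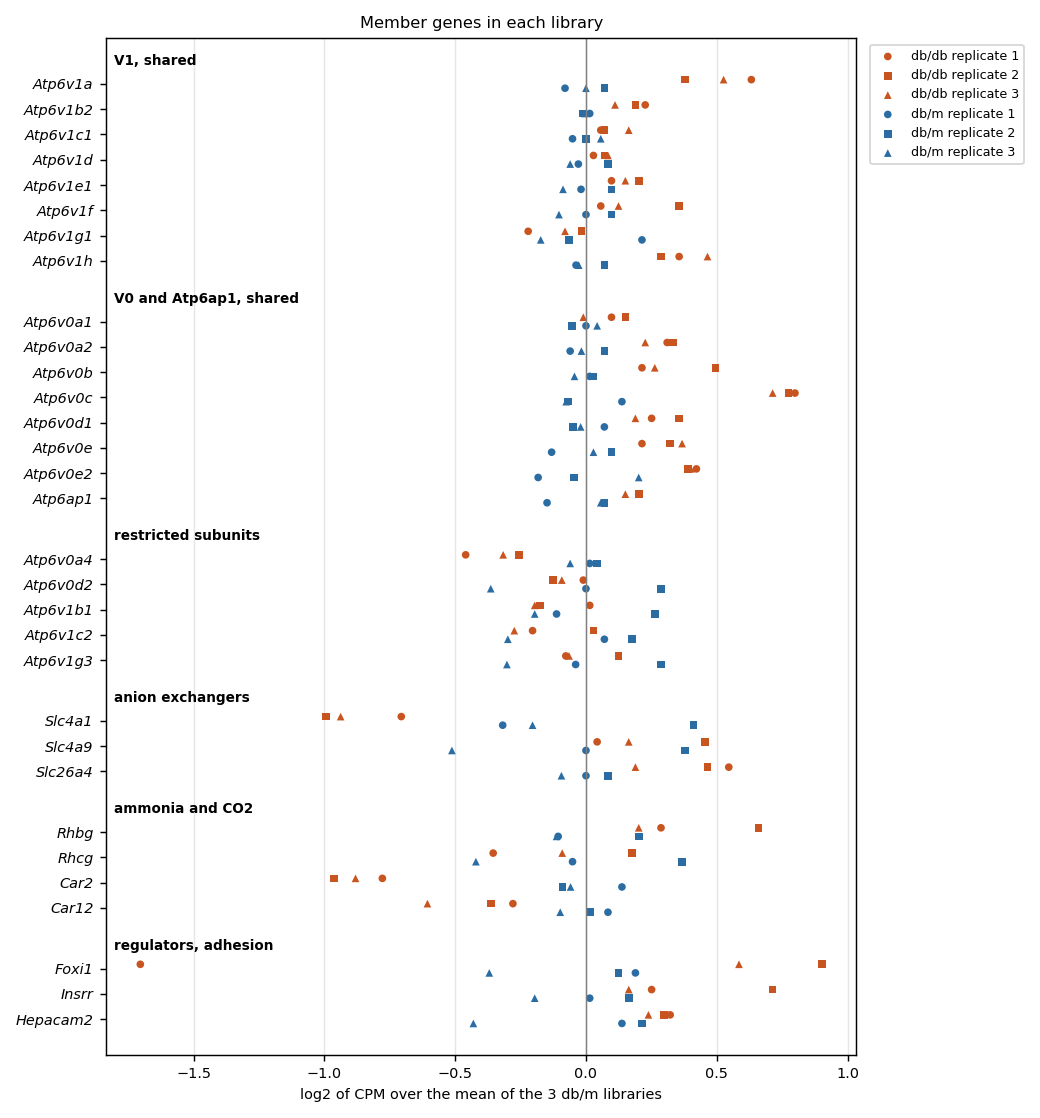
Level of each of the 31 members in every library, as the log2 of its CPM over the mean of the 3 db/m libraries (horizontal axis), with db/db in orange, db/m in blue and 1 symbol per replicate number. The db/db points lie right of all db/m points for 12 of the 16 shared subunits, left of them for Atp6v0a4, Slc4a1, Car2 and Car12, and the Foxi1 point of db/db replicate 1 lies far to the left of all others.

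The membrane part V0 held 6 of the 8 rises. Atp6v0c encodes subunit c, the ring that carries the protons, and it rose furthest. It had 519, 512 and 489 CPM in db/db libraries, against 328, 285 and 284 CPM in db/m libraries. No db/db library came near the db/m range, and the log2 fold change was 0.76 (SE 0.09, edgeR adjusted p = 0.00196). This call held in all 15 alternative settings, including total counts only, where the fold change was 0.50. GENCODE M21 lists processed pseudogenes named Atp6v0c-ps1 and Atp6v0c-ps2, neither of which has a row in the count table, and reads shared with them cannot be told apart here.

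The 250 bases before a start of Atp6v0c are shown first, because it rose furthest, followed by Atp6v1a and Atp6v0b, which rose as well. The promoters of Atp6v0a4, the restricted subunit that fell, and Atp6v1b1, its partner in the intercalated cell pump, are shown for contrast. Capitals mark matches on either strand to CACGTG, the core of the element through which TFEB is known to act on lysosomal genes, or to TGTTTA, a core bound by forkhead factors such as Foxi1. All are RefSeq sequences of GRCm38.p6, 5′ to 3′ in the sense of the gene.
Atp6v0c, chr17:24169451-24169700, minus strand: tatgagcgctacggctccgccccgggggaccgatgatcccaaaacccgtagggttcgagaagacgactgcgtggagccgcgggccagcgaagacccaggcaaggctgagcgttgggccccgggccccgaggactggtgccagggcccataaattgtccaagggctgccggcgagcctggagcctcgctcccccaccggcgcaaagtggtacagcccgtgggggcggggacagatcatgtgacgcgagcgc
Atp6v1a, chr16:44139260-44139509, minus strand: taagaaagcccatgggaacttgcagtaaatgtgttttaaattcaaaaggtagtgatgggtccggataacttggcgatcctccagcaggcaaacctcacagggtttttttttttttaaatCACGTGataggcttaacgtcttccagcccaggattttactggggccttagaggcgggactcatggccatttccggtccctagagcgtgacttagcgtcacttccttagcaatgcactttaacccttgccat
Atp6v0b, chr4:117887330-117887579, minus strand: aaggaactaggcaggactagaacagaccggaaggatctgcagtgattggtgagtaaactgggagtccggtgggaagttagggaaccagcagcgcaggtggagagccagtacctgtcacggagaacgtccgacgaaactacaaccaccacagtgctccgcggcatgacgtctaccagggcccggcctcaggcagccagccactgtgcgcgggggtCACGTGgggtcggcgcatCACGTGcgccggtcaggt
Atp6v0a4, chr6:38124587-38124836, minus strand: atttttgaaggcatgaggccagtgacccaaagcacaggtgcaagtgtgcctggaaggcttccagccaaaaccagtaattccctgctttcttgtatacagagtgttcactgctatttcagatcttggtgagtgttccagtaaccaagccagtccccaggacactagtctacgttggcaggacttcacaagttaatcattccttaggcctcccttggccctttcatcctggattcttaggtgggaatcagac
Atp6v1b1, chr6:83742767-83743016, plus strand: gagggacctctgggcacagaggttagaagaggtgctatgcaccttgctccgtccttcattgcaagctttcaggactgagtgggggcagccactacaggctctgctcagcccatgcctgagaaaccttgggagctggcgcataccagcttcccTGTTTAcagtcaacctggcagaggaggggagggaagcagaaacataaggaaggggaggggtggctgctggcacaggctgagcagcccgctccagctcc

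The table of promoters held 22 windows for 20 of the 31 members, with 3 starts for Atp6v0c, of which the middle one is shown. CACGTG was in 2 of these 22 windows, once in Atp6v1a, with its first base 131 bases before the start, and again in Atp6v0b, 36 and 18 bases before the start. It occurred in 6.02% of the 32851 windows of the same length over all genes. TGTTTA was in the windows of Atp6v1b1 and Car12, also 2 of 22, against 12.0% of all windows. In Atp6v1b1 it begins 98 bases before the start. The windows shown for Atp6v0c and Atp6v0a4 hold neither set of letters. Those shown include both member windows with CACGTG and that of Atp6v1b1. They therefore do not show how common either set of letters is among members. A match describes the letters only, and no match says only that these letters are not in this window.

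Atp6v0e2, an isoform of the small subunit e, was at 41.8, 41.0 and 41.2 CPM in db/db and 27.5, 30.3 and 36.0 CPM in db/m libraries (log2 fold change 0.40, SE 0.11, edgeR adjusted p = 0.0370). The proteolipid gene Atp6v0b had 217, 264 and 225 CPM in db/db libraries, against 190, 191 and 182 CPM in db/m libraries. The rise, 0.33 on the log2 scale (SE 0.09), passed with an edgeR adjusted p of 0.0442. In both genes every db/db library exceeded every db/m library, with db/m replicate 3 nearest for Atp6v0e2 and db/m replicate 2 for Atp6v0b. Atp6v0e, the other e subunit, had 134, 145 and 148 CPM in db/db and 105, 123 and 118 CPM in db/m libraries. Atp6v0a2, whose a isoform is known from Golgi and endosomes, had 74.1, 75.6 and 70.3 CPM in db/db and 57.3, 63.0 and 59.1 CPM in db/m libraries. Atp6v0d1, the shared d subunit that links V1 to the ring, had 140, 150 and 134 CPM in db/db and 123, 113 and 116 CPM in db/m libraries. The groups did not overlap for any of these 3. The rises of Atp6v0e, Atp6v0a2 and Atp6v0d1 were 0.30, 0.29 and 0.27 on the log2 scale (SE 0.09, 0.08 and 0.08, edgeR adjusted p = 0.0465, 0.0310 and 0.0476).

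The V0 calls other than Atp6v0c did not hold when single libraries were removed. Those of Atp6v0a2, Atp6v0b and Atp6v0e each ended on removal of any 1 of the 6 libraries, with edgeR adjusted p values of 0.0527 to 0.0879, 0.0585 to 0.0994 and 0.0630 to 0.140. The call of Atp6v0d1 ended without any library but db/m replicate 1 (edgeR adjusted p = 0.0829 to 0.140), and that of Atp6v0e2 without any but db/m replicate 3 (0.0718 to 0.104). With total counts only, none of these 5 was called and their log2 fold changes were 0.01 to 0.14. The remaining V0 genes did not pass. Atp6v0a1, the most widely used a isoform, had 65.7, 68.3 and 61.0 CPM in db/db and 61.5, 59.2 and 63.6 CPM in db/m libraries, which overlap. Atp6ap1, an accessory protein needed for pump assembly, had 202, 201 and 194 CPM in db/db and 158, 184 and 182 CPM in db/m libraries, with no overlap and an edgeR adjusted p of 0.155. Its log2 fold change and that of Atp6v0a1, 0.19 and 0.08, turned to -0.08 and -0.18 with total counts only.

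In the V1 part, 2 of 8 shared subunits rose. Atp6v1a, the catalytic A subunit that hydrolyses ATP, was at 453, 381 and 422 CPM in db/db libraries and 277, 308 and 293 CPM in db/m libraries. The lowest db/db library exceeded the highest db/m library by a clear margin, and the log2 fold change was 0.52 (SE 0.09, edgeR adjusted p = 0.00924). It stayed called whichever library was left out, and was 0.26 with total counts only, where the edgeR adjusted p was 0.0879. Atp6v1h, the regulatory H subunit, was at 126, 120 and 135 CPM in db/db and 95.5, 103 and 96.3 CPM in db/m libraries. It rose by 0.37 (SE 0.08, edgeR adjusted p = 0.0157), and its call ended without db/db replicate 3 (0.0642) and with total counts only (0.320). In GENCODE M21, 127 exonic bases of Atp6v1h overlap Rgs20 on the opposite strand, 662 of Atp6v0a2 overlap 4930404A12Rik and 70 of Atp6v0b overlap Gm12841. The strand setting of the counting is not given in the sources used here, so these counts are uncertain to that extent.

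The other V1 subunits did not pass. The log2 fold changes of Atp6v1b2, Atp6v1c1, Atp6v1d, Atp6v1e1 and Atp6v1f, which form the hexamer, the stator and the rotor, lay between 0.06 and 0.18, and all 5 turned negative with total counts only, at -0.20 to -0.08. Atp6v1b2, the B subunit of most cells, came nearest, with 366, 357 and 336 CPM in db/db and 315, 310 and 311 CPM in db/m libraries (edgeR adjusted p = 0.129). Atp6v1g1, a stalk subunit, went the other way, with 186, 214 and 205 CPM in db/db and 250, 207 and 192 CPM in db/m libraries. The estimate, -0.10 on the log2 scale (SE 0.12), was 0.03 once db/m replicate 1 was left out. With total counts only it was -0.36 and passed as lower (edgeR adjusted p = 0.0312).

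**Figure D2:**
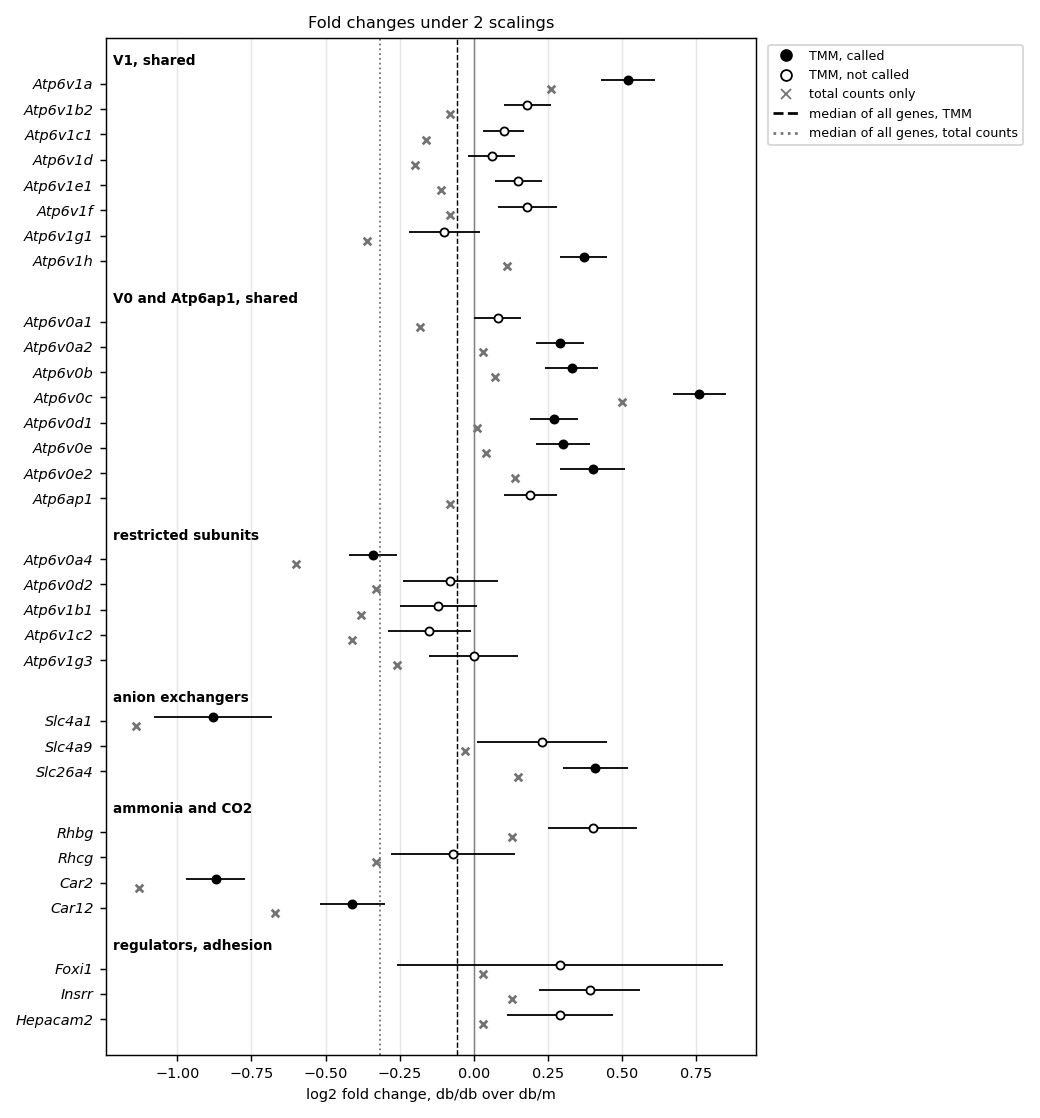
Log2 fold change of db/db over db/m for each member (horizontal axis), with TMM scaling (circles with SE, filled where called) and with total counts only (crosses), and the median of all genes under each scaling (vertical lines). Filled circles lie right of 0 for 8 shared subunits and Slc26a4 and left of it for Atp6v0a4, Slc4a1, Car2 and Car12, and each cross lies left of its circle.

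Among the restricted isoforms the a subunit fell. Atp6v0a4 encodes a4, the isoform whose loss causes distal renal tubular acidosis in people. It had 193, 222 and 213 CPM in db/db libraries, against 269, 273 and 255 CPM in db/m libraries. The groups did not overlap, and the log2 fold change was -0.34 (SE 0.08, edgeR adjusted p = 0.0268). It was -0.60 with total counts only (edgeR adjusted p = 0.00270). The call ended on removal of any library but db/m replicate 3 and db/db replicate 2 (edgeR adjusted p = 0.0584 to 0.0943), with fold changes of -0.38 to -0.28 over all removals. Of its exonic bases in GENCODE M21, 62 overlap Tmem213 on the opposite strand and 259 overlap D630045J12Rik on the same strand, and 50 of those of Atp6v1c2 overlap Pdia6 on the opposite strand.

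The other restricted isoforms overlapped between groups. Atp6v1b1, the B1 subunit that is also linked to renal tubular acidosis, was at 82.0, 72.3 and 71.1 CPM in db/db and 75.4, 98.0 and 71.2 CPM in db/m libraries. Atp6v1g3, the kidney G isoform, was at 64.4, 73.9 and 65.0 CPM in db/db and 66.1, 82.6 and 55.1 CPM in db/m libraries. Atp6v0d2 averaged 26.7 ± 1.11 CPM in db/db and 28.2 ± 6.25 CPM in db/m kidneys, and Atp6v1c2 averaged 32.4 ± 3.54 CPM in db/db and 35.9 ± 5.98 CPM in db/m kidneys (SD, n = 3 each). In all 4, db/m replicate 2 was the highest of the 6 libraries. Their log2 fold changes were -0.15 to 0.00, and without db/m replicate 2 those of Atp6v1b1, Atp6v1g3 and Atp6v0d2 became 0.04, 0.16 and 0.10. The median of the 5 restricted subunits was then 0.04 instead of -0.12. Atp6v0d2 is also a gene of osteoclasts and macrophages. Of 5 osteoclast markers, Ocstamp was at 0 in all libraries and Dcstamp at 0.177 CPM or less, and the list summed to 69.5 to 73.9 CPM in db/db and 79.8 to 88.4 CPM in db/m libraries, mostly from Acp5.

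Per kilobase of exon in GENCODE M21, the restricted a isoform was the leading one of the a isoforms among the members in both genotypes. Whole kidney counts do not show which cells its RNA came from, so neither its level nor its fall can be assigned to intercalated cells. Atp6v0a4 stood at 58.7 ± 4.16 CPM per kilobase in db/db and 74.5 ± 2.65 in db/m kidneys, against 16.1 ± 0.914 in db/db and 15.2 ± 0.544 in db/m for Atp6v0a1, and 13.7 ± 0.511 in db/db and 11.2 ± 0.545 in db/m for Atp6v0a2 (SD, n = 3 each). The B subunit showed the opposite order. Atp6v1b2 had 125 ± 5.45 CPM per kilobase in db/db and 110 ± 0.937 in db/m kidneys, and Atp6v1b1 had 22.1 ± 1.76 in db/db and 24.0 ± 4.25 in db/m kidneys. Atp6v0c was the most abundant member per kilobase, at 403 ± 12.5 in db/db and 238 ± 20.0 in db/m kidneys.

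A ratio of isoforms taken within a library is free of the scaling. The ratio of Atp6v0a4 to Atp6v0a1 counts was 2.94, 3.26 and 3.49 in db/db libraries and 4.37, 4.61 and 4.01 in db/m libraries. The groups did not overlap, and the log2 ratio was lower in db/db by a difference of -0.42 (1.69 ± 0.13 in db/db against 2.11 ± 0.10 in db/m, SD, n = 3 each; 2-sided exact permutation p = 0.1). With 3 against 3 libraries that is the smallest p this test can give, so no ratio could pass 0.05. The difference stayed between -0.48 and -0.36 whichever library was left out. The ratio of Atp6v1b1 to Atp6v1b2 was 0.224, 0.203 and 0.212 in db/db and 0.239, 0.316 and 0.229 in db/m libraries, also without overlap, with a log2 difference of -0.28 (exact permutation p = 0.1). Without db/m replicate 2, whose ratio was the highest, the difference was -0.14. Atp6v1c2 over Atp6v1c1 and Atp6v0d2 over Atp6v0d1 had log2 differences of -0.24 and -0.32 (exact permutation p = 0.3 for each), with overlapping groups, and both were -0.14 without db/m replicate 2. Atp6v1g3 over Atp6v1g1 differed by 0.11 in the other direction (exact permutation p = 0.6) and by -0.01 without db/m replicate 1. In all, 5 such ratios were computed, 4 of them lower in db/db on average.

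**Figure D3:**
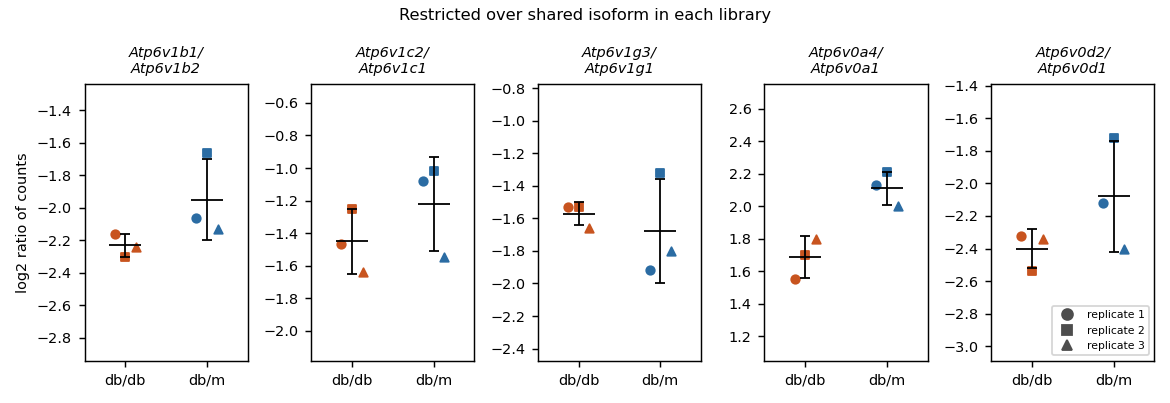
Log2 ratio of the counts of the restricted to the shared isoform (vertical axis) for the B, C, G, a and d subunits in db/db (orange) and db/m (blue) libraries, with the mean and SD in black and 1 symbol per replicate number. The db/db points lie below all db/m points for Atp6v0a4 over Atp6v0a1 and for Atp6v1b1 over Atp6v1b2, and db/m replicate 2 (square) is the highest db/m point in every panel.

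The anion exchangers of the intercalated cell types went opposite ways. Slc4a1 encodes AE1, which exports bicarbonate to the blood side of type A cells and also of red cells. It had 24.4, 20.0 and 20.8 CPM in db/db libraries, against 31.9, 52.9 and 34.6 CPM in db/m libraries. Every db/db library was below every db/m library, and the gene fell by 0.88 on the log2 scale (SE 0.20, edgeR adjusted p = 0.0202). Removal of db/db replicate 2 or 3 ended the call (edgeR adjusted p = 0.0742 and 0.0729). The largest db/m value came from replicate 2, and once that library was left out the fold change was -0.61 and still passed (edgeR adjusted p = 0.0286). Of 7 red cell markers tested 0 were called by edgeR, DESeq2 or limma-voom, also 0 at an unadjusted p below 0.05. The 8 in the table summed to 40.5, 92.3 and 285 CPM in db/db and 40.6, 149 and 44.9 CPM in db/m libraries. Replicate 2 was the highest db/m library for them and for Slc4a1. The highest sum of all was in db/db replicate 3, where Slc4a1 was at 20.8 CPM. The part of red cells in the fall of Slc4a1 was not tested.

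Slc26a4 encodes pendrin, the exchanger on the urine side of type B cells. It had 96.3, 90.9 and 75.2 CPM in db/db libraries, against 66.1, 69.8 and 61.8 CPM in db/m libraries, again without overlap. It rose by 0.41 (SE 0.11, edgeR adjusted p = 0.0347). The call ended without any library but db/db replicate 3 (edgeR adjusted p = 0.0641 to 0.105) and with total counts only (log2 fold change 0.15, 0.311). Slc4a9, the blood-side exchanger AE4 of type B cells, overlapped, with 81.5, 108 and 88.2 CPM in db/db and 79.2, 102 and 55.3 CPM in db/m libraries (log2 fold change 0.23, SE 0.22, edgeR adjusted p = 0.468, and -0.03 with total counts only). Within libraries, Slc4a1 had 0.253, 0.220 and 0.276 counts per count of Slc26a4 in db/db and 0.482, 0.758 and 0.559 in db/m. This ratio was chosen after the values were seen and is given without a test.

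**Figure D4:**
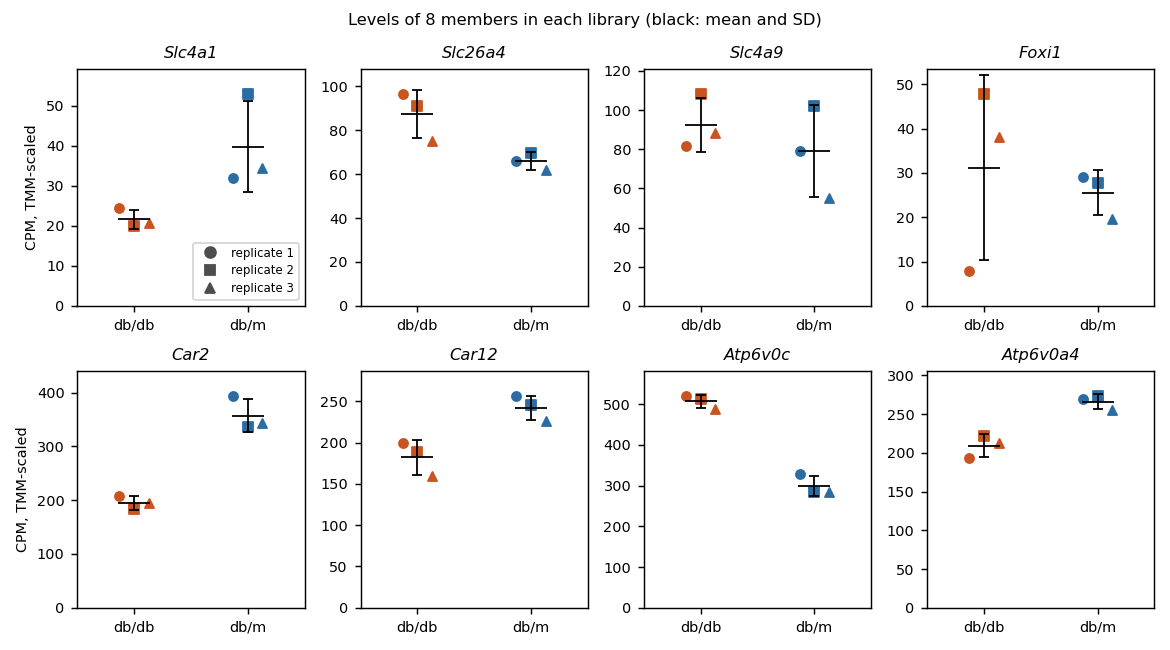
Levels of 8 members in CPM (vertical axes start at 0) in db/db (orange, left) and db/m (blue, right) libraries, with the mean and SD in black and 1 symbol per replicate number. Slc26a4 and Atp6v0c lie higher and Slc4a1, Car2, Car12 and Atp6v0a4 lower in all db/db libraries, Slc4a9 overlaps, and Foxi1 is low in db/db replicate 1 only.

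Both carbonic anhydrases fell. Car2, the cytosolic enzyme that makes protons and bicarbonate in intercalated cells and in proximal tubule, had 208, 183 and 194 CPM in db/db libraries, against 393, 336 and 343 CPM in db/m libraries. Every db/db library was far below every db/m library, and the log2 fold change was -0.87 (SE 0.10, edgeR adjusted p = 0.00152). The call held in all 15 alternative settings. Car12, a membrane-bound carbonic anhydrase, had 200, 188 and 159 CPM in db/db and 256, 245 and 226 CPM in db/m libraries. It fell by 0.41 (SE 0.11, edgeR adjusted p = 0.0309), and its call ended on removal of any library but db/m replicate 3 and db/db replicate 1 (edgeR adjusted p = 0.0748 to 0.0968). The ammonia transporters did not pass. Rhbg, on the blood side, had 50.7, 65.6 and 47.6 CPM in db/db and 38.6, 47.6 and 38.4 CPM in db/m libraries, with a log2 fold change of 0.40 (SE 0.15, edgeR adjusted p = 0.0913) that passed with DESeq2 (adjusted p = 0.0443). In GENCODE M21, 1190 of its exonic bases overlap Gm38392 on the same strand, so its count is uncertain. Rhcg, on the urine side, had 103, 149 and 124 CPM in db/db and 127, 169 and 98.4 CPM in db/m libraries, which overlap widely, and its difference of -0.07 on the log2 scale turned to 0.15 once db/m replicate 2 was left out and to 0.06 once db/db replicate 1 was.

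Foxi1, the forkhead factor on which intercalated cell identity depends in mice, had the widest spread of the members. It had 7.83, 47.7 and 38.1 CPM in db/db libraries, against 29.0, 27.7 and 19.7 CPM in db/m libraries, from 195, 1203 and 1044 counts in db/db and 798, 1095 and 612 counts in db/m. Replicate 1 of db/db was thus below, and both other db/db libraries above, all db/m libraries. The log2 fold change was 0.29 (SE 0.55, edgeR adjusted p = 0.724), 0.76 once db/db replicate 1 was left out (0.0496) and -0.14 once db/db replicate 2 was. Over the other 14 restricted and intercalated members, replicate 1 was the highest db/db library for 7 and the lowest for 4. In mice, Foxi1 is known to be needed for expression of Slc26a4, Slc4a9, Atp6v1b1 and Atp6v0a4. In db/db replicate 1, Slc26a4 and Atp6v1b1 had their highest db/db values, at 96.3 and 82.0 CPM, and Slc4a9 and Atp6v0a4 their lowest, at 81.5 and 193 CPM. Insrr, an alkali-sensing receptor of type B cells, averaged 33.9 ± 7.29 CPM in db/db and 25.8 ± 3.20 CPM in db/m kidneys (SD, n = 3 each, edgeR adjusted p = 0.128). Hepacam2, an adhesion protein used as an intercalated cell marker, averaged 16.3 ± 0.492 CPM in db/db and 13.4 ± 3.01 CPM in db/m kidneys (edgeR adjusted p = 0.265).

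Further intercalated cell genes outside the 31 either fell or did not pass. Of 18 tested, 7 fell and 0 rose, with the same counts by DESeq2 and limma-voom and 0 higher at an unadjusted p below 0.05, and the median was -0.36. Dmrt2, a transcription factor of type A cells, averaged 2.08 ± 0.838 CPM in db/db and 6.79 ± 1.42 CPM in db/m kidneys (log2 fold change -1.71, SE 0.35, edgeR adjusted p = 0.0135). Slc26a7, a blood-side chloride and bicarbonate exchanger, averaged 0.943 ± 0.0898 CPM in db/db and 2.26 ± 0.149 CPM in db/m kidneys (log2 fold change -1.26, SE 0.24). Both stayed called whichever library was left out. Aqp6, a water channel of type A cell vesicles, was at 37.0, 30.8 and 32.5 CPM in db/db and 52.5, 79.7 and 48.8 CPM in db/m libraries. The fall, -0.85 on the log2 scale, was -0.59 once db/m replicate 2 was left out (edgeR adjusted p = 0.0226), and its call ended without db/db replicate 2 (0.0712) or 3 (0.0686). Atp4a, a subunit of the gastric-type proton and potassium pump, averaged 38.1 ± 3.76 CPM in db/db and 61.0 ± 10.9 CPM in db/m kidneys, and its call ended without db/db replicate 3 (0.0642). Kit, a receptor of type A cells, had a log2 fold change of -0.51 and lost its call without any library but db/m replicate 3 (0.0665 to 0.127). Car15, a further carbonic anhydrase, did not pass, with 139 ± 9.92 CPM in db/db and 127 ± 36.7 CPM in db/m kidneys.

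Assembly and accessory genes of the pump went both ways, with 1 of 16 tested higher, 3 lower and a median of -0.11. With total counts only, 1 was higher and 8 were lower. Rnasek, a small membrane protein known to associate with the V-ATPase, had 175, 204 and 168 CPM in db/db libraries, against 107, 95.2 and 93.7 CPM in db/m libraries (log2 fold change 0.89, SE 0.10, edgeR adjusted p = 0.00180). The groups were far apart, and the call held in all 15 alternative settings. Atp6ap2, the accessory protein also called the prorenin receptor, averaged 83.3 ± 2.74 CPM in db/db and 103 ± 1.72 CPM in db/m kidneys (log2 fold change -0.30, SE 0.07, edgeR adjusted p = 0.0210). Tcirg1, the a3 isoform of lysosomes and osteoclasts, averaged 26.4 ± 2.75 CPM in db/db and 40.9 ± 9.58 CPM in db/m kidneys. Without db/m replicate 2, its highest library, the log2 fold change of Tcirg1 was -0.42 instead of -0.63. Oxr1, of a family that binds the pump, averaged 23.2 ± 1.97 CPM in db/db and 30.0 ± 1.88 CPM in db/m kidneys. The calls of Atp6ap2 and Oxr1 ended whichever library was left out (0.0502 to 0.0705 and 0.0526 to 0.110), and that of Tcirg1 without any but db/m replicate 1 (0.0526 to 0.121). Of 8 macrophage markers, which express Tcirg1 strongly, 2 fell and 0 rose, and the list summed to 113 to 136 CPM in db/db and 64.3 to 195 CPM in db/m libraries. Limma-voom called 0 of them in either direction, DESeq2 called 1 higher and 1 lower, and edgeR without adjustment counted 1 higher at p below 0.05. Their part in the fall of Tcirg1 was not tested.

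Some markers of neighbouring tubule cells changed as well. Of 12 principal cell markers, 3 fell, 0 rose and 9 were not called. DESeq2 called 4 lower and 0 higher, limma-voom 2 lower and 0 higher, and edgeR counted 0 higher at an unadjusted p below 0.05. Their sum was 779 to 989 CPM in db/db libraries and 1185, 1928 and 1450 CPM in db/m libraries, with Aqp2 the largest part in each. Aqp2, the vasopressin-regulated water channel, was at 377, 243 and 394 CPM in db/db and 556, 897 and 710 CPM in db/m libraries (log2 fold change -1.09, SE 0.23, edgeR adjusted p = 0.0154), or -0.90 once db/m replicate 2 was left out (0.0459). Of 5 distal convoluted tubule markers 3 fell, with sums of 923 to 989 CPM in db/db libraries and 1347, 2040 and 1309 CPM in db/m libraries. Both sums were highest in db/m replicate 2 and lower in every db/db library than in any db/m library. The members Car2, Car12, Slc4a1 and Atp6v0a4 thus fell in libraries where both sums were lower, although most principal cell markers were not called. The part of either cell type in the falls of these members was not tested. For the shared subunits, 7 proximal tubule markers summed to 14062 to 15894 CPM in db/db and 8962 to 11890 CPM in db/m libraries, most of it from Slc34a1 and Slc27a2. Of these 7, Slc27a2 rose and Slc5a12 fell. DESeq2 called 4 higher and 1 lower, edgeR without adjustment counted 4 higher and 2 lower, and with total counts only 1 was higher and 2 were lower. Of 12 lysosomal genes, 2 rose and 0 fell in edgeR and limma-voom, DESeq2 called 3 higher and 1 lower, and edgeR without adjustment counted 3 higher and 2 lower. With total counts only, 1 was higher and 4 were lower. The 12 genes had sums of 4346 to 4458 CPM in db/db and 4104 to 4203 CPM in db/m libraries. Lamp1, the main lysosomal membrane protein, averaged 1182 ± 37.4 CPM in db/db and 1122 ± 59.7 CPM in db/m kidneys (edgeR adjusted p = 0.560). Whether proximal tubule or lysosomal content bears on the shared subunits was not tested.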

How the data were processed

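Whole kidney RNA of 3 db/db and 3 db/m samples was selected for poly(A) and sequenced strand-specifically, per the labels' protocols. The submitters' processing notes name fastp, FastQC, HISAT2, SAMtools, StringTie and DESeq2. For versions, genome build and counting options, nothing is given in the sources used here. The authors deposited raw counts by gene symbol. A count of 0 allows up to 3 counts, or 0.0759 to 0.120 CPM, covering counting error only. Within groups, libraries differed by more than sampling noise (chi-square over degrees of freedom 15.9 to 59.5), and none was merged.

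Low genes were removed with filterByExpr, libraries scaled by TMM (factors 0.901 to 1.122), and groups compared by the edgeR quasi-likelihood test with Benjamini-Hochberg adjustment over all genes tested (edgeR 4.0.16, limma 3.58.1, DESeq2 1.42.0, R 4.3.3). The fit was run on simulated data to check that large planted changes were recovered. That check does not cover changes as small as those of the members. SE is the log2 fold change over the root of F. Ratios used counts plus 1. Exon lengths and overlaps came from GENCODE M21, matched by symbol, and promoters from RefSeq. Other scalings, filters, tests and left-out libraries were tried.

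Members and lists were chosen with earlier results of these data known. Genes named were all members, Lepr and up to 4 of each other list by p. Aqp6, Atp4a, Kit, Lamp1, Slc34a1, Slc27a2, Slc5a12 and the red cell and osteoclast genes given as levels were named after their values were seen. Some genes of these lists are counted but not reported here by name.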

Additional observations from a re-analysis of the deposited data

How the results depend on the processing

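The members called were 9 higher and 4 lower. With total counts only, 1 was higher, with 1 shared subunit higher and 1 lower. Upper quartile scaling gave 5 shared subunits higher, and no filter gave 5 members and 4 shared subunits. Without both libraries numbered 3, 1 member was higher, which was a shared subunit, 1 was lower, and 0 restricted subunits were lower. Leaving out each library gave 3 to 4 members higher, 1 to 4 lower, 2 to 4 shared subunits higher and 0 to 1 restricted subunit lower. DESeq2 size factors, the DESeq2 test, limma-voom and a stricter filter (1 CPM and 10 counts in 3 libraries) kept these counts within 1.5 times. All 13 called members kept their direction in the 15 settings, and 2, Atp6v0c and Car2, kept their call in each.

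Over all genes tested, samples sharing a number showed little common deviation (r = -0.15, 0.06 and 0.14 for numbers 1, 2 and 3). These values cannot show whether a number marks a shared batch or day, which the labels do not state. Both libraries numbered 3 were the highest of their group for adipocyte and urothelial marker sums. With the replicate block, 2 members were higher, 2 lower, 2 shared subunits higher and 0 restricted subunits lower.

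The signs that changed belong to members without a call. With total counts only the log2 fold change was -0.08 for Atp6v1b2, -0.16 for Atp6v1c1, -0.20 for Atp6v1d, -0.11 for Atp6v1e1, -0.08 for Atp6v1f, -0.18 for Atp6v0a1, -0.08 for Atp6ap1 and -0.03 for Slc4a9. Over removals of single libraries it ran from -0.17 to 0.03 for Atp6v1g1, -0.22 to 0.10 for Atp6v0d2, -0.20 to 0.04 for Atp6v1b1, -0.13 to 0.16 for Atp6v1g3, -0.23 to 0.15 for Rhcg and -0.14 to 0.76 for Foxi1, and the ratio of Atp6v1g3 to Atp6v1g1 from -0.01 to 0.29. Atp6v1g3 was 0.01 with DESeq2 size factors, the DESeq2 test, limma-voom and the block. Foxi1 was -0.04 with limma-voom and -0.03 without both libraries numbered 3. The causes were not tested.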

Other observations

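Of the remaining marker lists, the urothelial, adipocyte, adrenal and thick limb ones had 0 calls in edgeR and limma-voom, and DESeq2 called 1 thick limb gene higher. At an unadjusted p below 0.05 edgeR counted 1 thick limb gene higher and 1 lower, and 0 genes of the other 3 lists. The sums were 3.29 to 3.91 CPM in db/db and 3.77 to 6.11 CPM in db/m libraries for adrenal, and 1993 to 3937 CPM in db/db and 2197 to 3276 CPM in db/m for thick limb. Each library numbered 3 was the highest of its group for adipocyte and urothelial markers. The adipocyte sums were 2.97, 0.674 and 55.6 CPM in db/db and 3.31, 2.15 and 48.8 CPM in db/m libraries, and the urothelial sums were 13.6, 1.35 and 43.2 CPM in db/db and 37.9, 30.7 and 83.6 CPM in db/m libraries. Without both of them, 1 member was called higher and 1 lower.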
